A study of Mus musculus with 4 samples.

Results

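The genes described here encode 10 proteins of ubiquitin-dependent signalling to NF-kB: Tnfaip3, Tnip1, Tnip2, Tnip3, Cyld, Traf1, Traf2, Birc2, Birc3 and Ripk2. All but Ripk2 are known as regulators below receptors of the tumour necrosis factor (TNF) family. They were taken by symbol from 23005 genes and unnamed transcript entries, and for each symbol the RefSeq entry with the highest mean level over all libraries was used. Tnfaip3 had 2 entries, Cyld had 3 and the other 8 genes had 1 each. All 10 were among the 14386 genes and unnamed entries with at least 1 RPKM in at least 1 library, and 9 of them reached 1 RPKM in every library. The exception was Tnip3, which was under 1 RPKM in wild-type control cells, so that it passed this filter through the libraries in which it was higher.

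The sequenced RNA came from cultures of mouse embryonic fibroblasts (MEFs) in 4 groups: cells labelled Mll1-/- given TNF, cells labelled Mll1-/- given control solution, wild-type Mll1+/+ cells given TNF, and wild-type Mll1+/+ cells given control solution. TNF was given at 10 ng/ml for 4 hr, per the series' design text and the agent label, although the treatment protocol writes the dose in another unit. Cells of 3 separate treatments were mixed before sequencing, so each group is 1 library, nothing is replicated and no difference below was tested. The labels call the cells a MEF line and do not say how the Mll1 allele was made, how many embryos or clones each genotype stands for, or whether the cells were immortalised.

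Level values are RPKM, reads scaled to the length of the transcript and to the reads of the library, as the authors deposited them. The libraries held 19306506 and 20081869 reads for cells labelled Mll1-/- with TNF and in control, and 27977248 and 27728647 reads for wild-type cells with TNF and in control, recovered from the steps of the RPKM values. Kmt2a, the present symbol of Mll1, stood at 1.66 and 2.02 RPKM in cells labelled Mll1-/- with TNF and in control, against 2.11 and 1.85 RPKM in wild-type cells with TNF and in control. A value summed over a whole transcript cannot show loss of a part of it, so this level does not check the genotype labels. The NF-kB target Nfkbia was at 54.3 RPKM with TNF against 21.8 in control in cells labelled Mll1-/-, and at 66.4 against 16.4 in wild-type cells. The chemokine genes Ccl2 and Cxcl1 were likewise higher with TNF in both genotypes, and Icam1 had only 6 and 0 reads with TNF and in control in cells labelled Mll1-/-, against 10 and 0 in wild-type cells. Of 8 fibroblast markers 7 had a matched entry, and their summed level lay between 2419 and 2944 RPKM, but 5 of the 7 were past the size rule given below upward in cells labelled Mll1-/-, with and without TNF. The matched leukocyte (4 of 8), endothelial (4 of 4) and epithelial (3 of 4) markers were each under 1 RPKM in every library, with no marker at 0 in all libraries. Of 4 neural markers 3 had an entry, and they summed to 43.8 and 42.4 RPKM in cells labelled Mll1-/- with TNF and in control, against 8.65 and 9.24 RPKM in wild-type cells with TNF and in control. Tubb3 and Map2 made up nearly all of the neural sum, and Gfap was under 1 RPKM in every library. Vim made up most of the fibroblast sum. It had 2097 and 2177 RPKM in cells labelled Mll1-/- with TNF and in control, against 2224 and 2418 in wild-type cells. Most of the other matched neural and fibroblast markers moved with genotype, and their part in the genotype differences below was not tested. In bulk RNA, fewer cells that express a gene and less RNA per cell cannot be told apart.

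When TNF binds its receptor, adaptor proteins and ubiquitin ligases gather there and build ubiquitin chains that recruit the kinases leading to NF-kB. Traf2 brings the cIAP ligases, encoded by Birc2 and Birc3, into that complex, and Traf1 is a relative of Traf2 that lacks the RING domain. A20, the product of Tnfaip3, edits and removes ubiquitin, the Tnip proteins bind A20 and ubiquitin chains, and Cyld is a deubiquitinase that takes chains off NF-kB signalling proteins. Ripk2 is a kinase that carries signals from the bacterial sensors Nod1 and Nod2 and is itself decorated with ubiquitin chains. Several of these genes are known NF-kB targets, which makes their products feedback regulators.

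Promoter sequence was available from RefSeq (GRCm38.p6) for 9 of the 10 genes, with 250 bases before and 50 bases after the first listed transcript start. Ripk2 had no entry. Both strands were searched for the NF-kB consensus decamer, named here for its binding factor, and for the AP-1 core letters TGANTCA. The decamer was found in 4 of the 9 windows, those of Tnfaip3, Tnip1, Tnip3 and Cyld, and in 8.46% of all 32851 promoter windows of this length. TGANTCA was found in Tnfaip3 alone of the 9, at -136 to -130 from the start, and in 7.81% of all windows. The 160 bases before the start are given below for these 4 genes and for Traf1, which had high TNF ratios but no match. Each is written on the strand of the gene, with matches of the decamer on either strand in capitals.
Tnip3, chr6:65590238-65590397, plus strand: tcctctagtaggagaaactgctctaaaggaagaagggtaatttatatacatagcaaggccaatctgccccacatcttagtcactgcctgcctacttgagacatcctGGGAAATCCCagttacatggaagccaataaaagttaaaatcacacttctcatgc
Tnip1, chr11:54962941-54963100, minus strand: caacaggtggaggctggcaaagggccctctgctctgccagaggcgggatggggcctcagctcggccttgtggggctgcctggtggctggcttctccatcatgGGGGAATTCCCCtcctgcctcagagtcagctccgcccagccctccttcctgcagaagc
Tnfaip3, chr10:19015411-19015570, minus strand: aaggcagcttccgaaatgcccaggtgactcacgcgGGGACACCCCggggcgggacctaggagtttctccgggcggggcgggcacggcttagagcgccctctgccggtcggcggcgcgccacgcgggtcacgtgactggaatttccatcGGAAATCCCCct
Cyld, chr8:88696868-88697027, plus strand: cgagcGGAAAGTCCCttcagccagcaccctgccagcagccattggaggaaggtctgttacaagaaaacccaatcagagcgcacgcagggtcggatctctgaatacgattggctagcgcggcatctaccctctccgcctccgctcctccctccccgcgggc
Traf1, chr2:34961773-34961932, minus strand: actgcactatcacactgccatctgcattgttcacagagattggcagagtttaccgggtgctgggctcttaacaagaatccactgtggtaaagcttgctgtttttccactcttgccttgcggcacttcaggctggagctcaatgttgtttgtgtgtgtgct

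In Tnfaip3 the capitals mark separate decamers, GGGACACCCC at -125 to -116 from the start and GGAAATCCCC at -12 to -3, which reads as the consensus on the opposite strand. In Tnip1 overlapping matches make up the run GGGGAATTCCCC at -58 to -47, and in Tnip3 the match GGGAAATCCC lies at -54 to -45. Cyld carries GGAAAGTCCC at -155 to -146. A match is a description of letters. Of the 4 genes with the decamer, Tnfaip3, Tnip1 and Tnip3 passed the size rule for TNF given below in at least 1 genotype and Cyld did not. Of the 5 without it, Traf1 and Birc3 passed in at least 1 genotype and Tnip2, Traf2 and Birc2 did not.

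**Figure D1:**
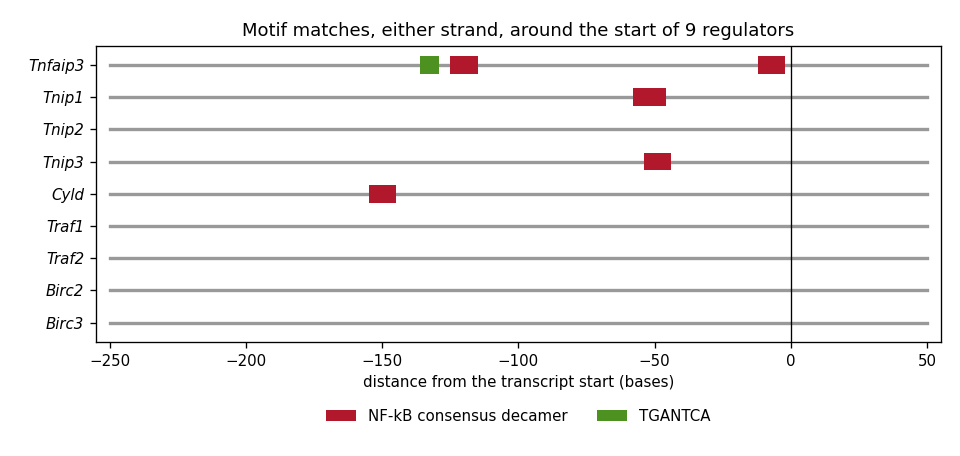
Matches of the NF-kB consensus decamer (red) and of TGANTCA (green) on either strand, plotted by distance from the transcript start in bases, for the 9 regulators with a RefSeq promoter. Tnip1 and Tnip3 carry a decamer at -58 to -45, and the windows of Tnip2, Traf1, Traf2, Birc2 and Birc3 hold no match of either motif.

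With TNF, Tnfaip3, Tnip1, Tnip3, Traf1, Birc3 and Ripk2 were higher in both genotypes, and the other members stayed closer to their control level. The size rule asks for a log2 ratio of at least 1 in size, computed on RPKM + 0.5, a 2-fold difference on that scale that understates the change of genes with low RPKM. In cells labelled Mll1-/-, 4 of the 10 genes were past it upward, against 0.688% of all genes and entries tested. In wild-type cells 5 were, against 0.521% of all. No member was past it downward in either genotype, where 0.16% of all were in cells labelled Mll1-/- and 0.0556% in wild-type cells. Tnip1, Tnip3 and Traf1 were past the rule in both genotypes, Birc3 in cells labelled Mll1-/- alone, and Tnfaip3 and Ripk2 in wild-type cells alone. The median log2 ratio of the 10 was 0.67 in cells labelled Mll1-/- (all genes 0.02) and 1.02 in wild-type cells (all genes -0.02).

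**Figure D2:**
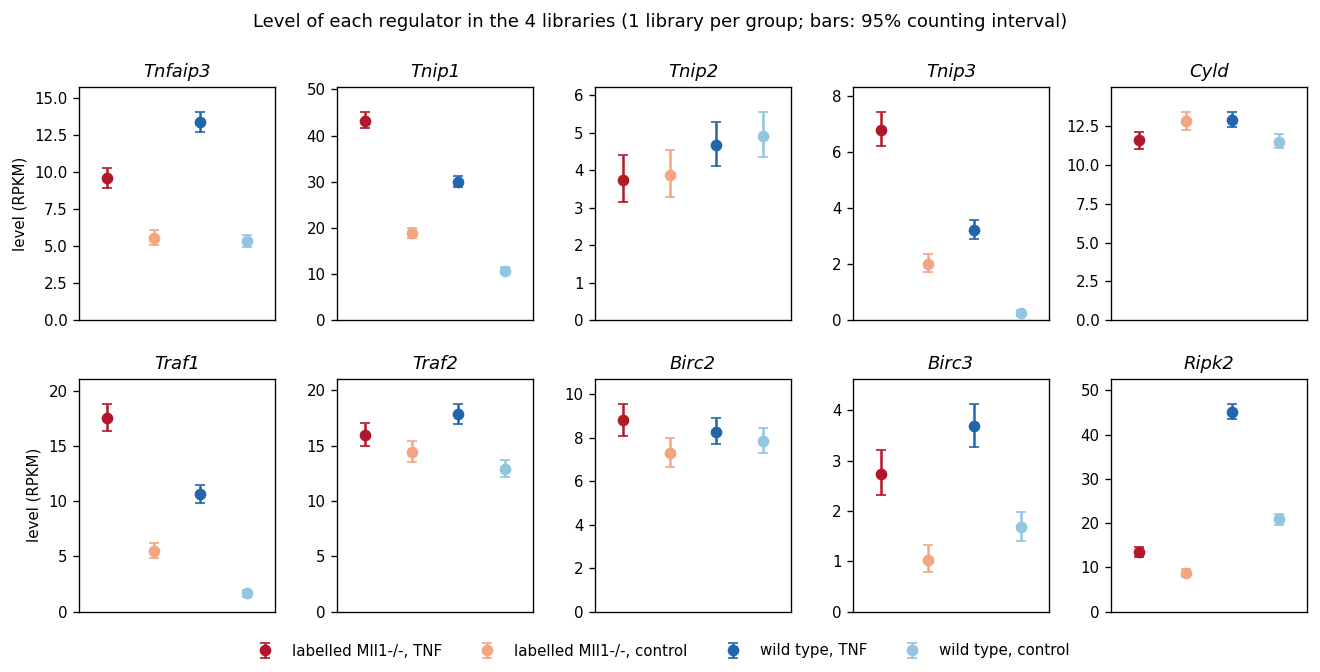
Level of each regulator in RPKM (vertical axis, from 0) in the 4 libraries, with 95% counting intervals as bars and 1 library per point. Tnip1, Tnip3 and Traf1 are highest in cells labelled Mll1-/- with TNF, Ripk2, Tnfaip3 and Birc3 are highest in wild-type cells with TNF, and Tnip2, Cyld and Birc2 change little.

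Tnfaip3, whose product A20 ends NF-kB signalling, had 9.57 RPKM with TNF against 5.56 in control in cells labelled Mll1-/-, and 13.3 against 5.32 in wild-type cells. The control libraries were thus close together and the TNF libraries were apart. From reads, the ratio was 1.72-fold in cells labelled Mll1-/- (804 against 486 reads, interval 1.54 to 1.93) and 2.51-fold in wild-type cells (1625 against 642 reads, 2.29 to 2.75). These are 95% exact binomial (Clopper-Pearson) intervals of the read ratio, called counting intervals here, and they cover counting error only. The log2 ratio on RPKM + 0.5 was 0.73 in cells labelled Mll1-/- and 1.25 in wild-type cells, so the size rule was met in wild-type cells alone. Such a split does not by itself show a difference between the genotypes, which is given further below. The other entry of Tnfaip3, with 4437 in place of 4352 bases, gave 0.74 in cells labelled Mll1-/- and 1.25 in wild-type cells. Reads summed over all entries came to 1.66 to 1.76 times the library totals, so entries share reads. The other entry is therefore no independent check.

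Among the A20-binding inhibitors, Tnip1 was the most abundant and Tnip3 had the highest TNF ratio, while that of Tnip2 was within counting error of 1. Tnip1 stood at 43.3 RPKM with TNF against 18.9 in control in cells labelled Mll1-/-, and at 30.02 against 10.8 in wild-type cells. Its ratio was 2.29-fold (2.13 to 2.46) in cells labelled Mll1-/- and 2.79-fold (2.58 to 3.02) in wild-type cells. Both libraries of cells labelled Mll1-/- were above the matching wild-type library. Tnip3 had 6.79 RPKM with TNF against 2.02 in control in cells labelled Mll1-/- (494 and 153 reads), and 3.21 against 0.249 in wild-type cells (339 and 26 reads). The ratio was 3.36-fold (2.80 to 4.05) in cells labelled Mll1-/- and 12.9-fold (8.67 to 20.1) in wild-type cells. On the RPKM + 0.5 scale the log2 ratio of Tnip3 was 1.53 in cells labelled Mll1-/- and only 2.31 in wild-type cells, since its wild-type control level lies below the pseudocount. Tnip2 had 3.74 RPKM with TNF against 3.88 in control in cells labelled Mll1-/-, and 4.67 against 4.92 in wild-type cells. Its counting interval held 1 in cells labelled Mll1-/- (0.763 to 1.22) and in wild-type cells (0.798 to 1.13). Summed over the 3 genes, Tnip transcripts came to 53.8 RPKM with TNF against 24.8 in control in cells labelled Mll1-/-, and to 37.9 against 15.9 in wild-type cells.

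Traf1 and Traf2, the adaptor pair, differed in the same way as the Tnip genes. Traf1 had 17.6 RPKM with TNF against 5.50 in control in cells labelled Mll1-/-, and 10.7 against 1.64 in wild-type cells. The ratio was 3.20-fold (2.78 to 3.70) in cells labelled Mll1-/- and 6.49-fold (5.28 to 8.04) in wild-type cells, which placed Traf1 at rank 29 from the top in cells labelled Mll1-/- and at rank 8 in wild-type cells, among the 14386 genes and entries. Traf2 had 15.998 RPKM with TNF against 14.4 in control in cells labelled Mll1-/-, and 17.9 against 12.9 in wild-type cells. Its ratio of 1.11-fold (1.01 to 1.22) in cells labelled Mll1-/- turns to a log2 value of -0.01 when library scaling omits the 20 most abundant genes, whereas 1.38-fold (1.28 to 1.499) in wild-type cells stays above 1. Per transcript length, the Traf1 to Traf2 ratio was 1.10 with TNF (1.0005 to 1.21) against 0.382 in control (0.331 to 0.439) in cells labelled Mll1-/-. In wild-type cells it was 0.597 with TNF (0.545 to 0.654) against 0.127 in control (0.103 to 0.156). Traf1 was therefore the rarer transcript in every library except that of cells labelled Mll1-/- with TNF, where the pair stood at about equal levels.

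The neighbouring ligase genes Birc2 and Birc3 likewise split into a steady and an inducible member. Birc2, which encodes cIAP1, had 8.80 RPKM with TNF against 7.29 in control in cells labelled Mll1-/-, and 8.28 against 7.85 in wild-type cells. Its ratio was 1.21-fold (1.06 to 1.37) in cells labelled Mll1-/- and 1.05-fold (0.949 to 1.17) in wild-type cells. Birc3, which encodes cIAP2, had 2.74 RPKM with TNF against 1.02 in control in cells labelled Mll1-/- (149 and 58 reads), and 3.69 against 1.68 in wild-type cells (291 and 131 reads). The ratio was 2.67-fold (1.9604 to 3.68) in cells labelled Mll1-/- and 2.20-fold (1.79 to 2.73) in wild-type cells, and the intervals of the genotypes overlap. On the RPKM + 0.5 scale Birc3 was at 1.09 in cells labelled Mll1-/- and 0.95 in wild-type cells, on either side of the size rule. Without a pseudocount it was past the rule in both, at 1.42 in cells labelled Mll1-/- and 1.14 in wild-type cells. Of the 30-base windows in Birc3 transcripts of GENCODE M21, 11.9% also occur in transcripts of other genes, 95 of them in Birc2 and 273 in Gm7019, so part of its reads may have been shared. For the other 9 genes that share was at most 3.72%.

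Ripk2 had the lowest level relative to wild type of the 10, and the level of the deubiquitinase gene Cyld differed little between libraries. Cyld had 11.6 RPKM with TNF against 12.8 in control in cells labelled Mll1-/-, and 12.9 against 11.5 in wild-type cells. Its ratio was 0.903-fold (0.847 to 0.962) in cells labelled Mll1-/- and 1.122-fold (1.06 to 1.18) in wild-type cells. The Cyld transcript is long, 8013 bases, and genes of about that length had a median log2 ratio of -0.20 in cells labelled Mll1-/- and 0.03 in wild-type cells. With this length trend taken out the log2 ratio of Cyld in cells labelled Mll1-/- was 0.06, no longer below 0. Ripk2 had 13.4 RPKM with TNF against 8.62 in control in cells labelled Mll1-/-, and 45.2 against 20.8 in wild-type cells. Both wild-type libraries were above both libraries of cells labelled Mll1-/-. The ratio was 1.56-fold (1.35 to 1.79) in cells labelled Mll1-/- and 2.17-fold (2.02 to 2.33) in wild-type cells. The length recovered for Ripk2, 1923 bases, is the shortest that gives whole reads, so its reads are a lower bound and its intervals may be too wide.

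Counting intervals excluded 1 upward for 8 of the 10 genes in cells labelled Mll1-/-, where they did so for 26.5% of all, and downward for Cyld, as for 22.2% of all. In wild-type cells they excluded 1 upward for 8 of the 10, as for 15.9% of all, and downward for none of the 10, against 19.9% of all. Such intervals are narrow for abundant transcripts, so small ratios pass them often.

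**Figure D3:**
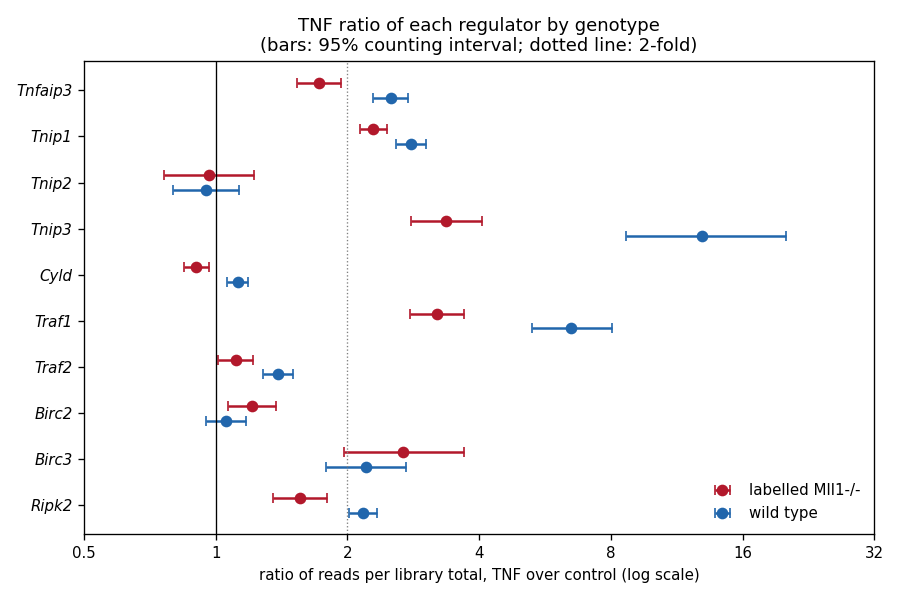
Ratio of reads per library total, TNF over control, on a log scale, for each regulator in cells labelled Mll1-/- (red) and wild-type cells (blue), with 95% counting intervals and a dotted line at 2-fold. Tnip3 and Traf1 have ratios of 3.36 and 3.20 in cells labelled Mll1-/-, well to the left of 12.9 and 6.49 in wild-type cells, while the intervals of Tnip2, Birc2 and Birc3 overlap between genotypes.

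Without TNF, Tnip3 and Traf1 were already higher in cells labelled Mll1-/- and Ripk2 was lower. Past the size rule were 2 of the 10 upward, against 7.11% of all genes and entries, and 1 downward, against 7.99%. Counting intervals excluded 1 upward for 5 of the 10, as for 33.6% of all, and downward for 3, as for 42.5% of all. Tnip3 was 8.13-fold higher (5.34 to 12.8) in cells labelled Mll1-/- and Traf1 was 3.35-fold higher (2.66 to 4.24). Ripk2 was at 0.414 of the wild-type level (0.365 to 0.468, log2 -1.23), and at log2 -0.94, short of the rule, when scaling omits the 20 most abundant genes. Tnip1 was 1.76-fold higher (1.60 to 1.92, log2 0.78), and past the rule at 1.07 under that same scaling. Birc3 was at 0.611 (0.441 to 0.839) and Tnip2 at 0.788 (0.642 to 0.965) of the wild-type level. The differences of Tnfaip3, Cyld, Traf2 and Birc2 were between -0.10 and 0.15 on the log2 scale, and the sign turned for Tnfaip3 and Cyld with the length trend removed and for Birc2 when scaling omits the 20 most abundant genes.

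With TNF, the same 3 genes led, and the gap was narrower for Tnip3 and Traf1. Past the size rule were 0 of the 10 upward, against 6.71% of all, and 1 downward, Ripk2, against 4.5% of all. Counting intervals excluded 1 upward for 3 of the 10, as for 30.8% of all, and downward for 6, as for 38.8% of all. Ripk2 was at 0.297 of the wild-type level (0.269 to 0.327, log2 -1.72). Tnip3 was 2.11-fold higher in cells labelled Mll1-/- (1.84 to 2.43), a log2 value of 0.97 that passed 1 under 4 of the 8 alternatives that give gene values, with a range of 0.89 to 1.08. Traf1 was 1.65-fold higher (1.49 to 1.83) and Tnip1 1.44-fold higher (1.36 to 1.53). Tnfaip3 was at 0.717 (0.658 to 0.781), Birc3 at 0.742 (0.605 to 0.907) and Tnip2 at 0.801 (0.648 to 0.987) of the wild-type level. Traf2 and Cyld were at 0.895 (0.824 to 0.972) and 0.897 (0.845 to 0.951), and the interval of Birc2 held 1 (0.949 to 1.19).

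The TNF ratio was smaller in cells labelled Mll1-/- for 7 of the 10 genes, and the reverse held for none beyond counting error. The difference of log2 TNF ratios, cells labelled Mll1-/- minus wild type, had a median of -0.30 over the 10, against 0.03 over all genes and entries. A smaller ratio was not particular to the 10. The 3 tested TNF targets Nfkbia, Ccl2 and Cxcl1 had a median difference of -0.69 (range -1.24 to -0.36), with 1 past the size rule downward. The normal counting interval of the difference, from the log2 ratio of read ratios, lay below 0 for Tnfaip3, Tnip1, Tnip3, Cyld, Traf1, Traf2 and Ripk2, as for 20.3% of all. It lay above 0 for none of the 10, against 25.6% of all, and it held 0 for Tnip2, Birc2 and Birc3. On RPKM + 0.5 no member reached a difference of 1 in size, which 0.758% of all reached upward and 0.424% downward. Traf1 (-0.79) and Tnip3 (-0.78) were the lowest members on that scale, at ranks 127 and 129 from the bottom of 14386. From reads with no pseudocount they were at -1.02 (interval -1.38 to -0.66) and -1.94 (-2.58 to -1.31). From reads, Tnfaip3 was at -0.54 (-0.75 to -0.33), Ripk2 at -0.48 (-0.70 to -0.26), Traf2 at -0.32 (-0.49 to -0.14), Cyld at -0.31 (-0.43 to -0.19) and Tnip1 at -0.28 (-0.44 to -0.13). Birc3 (0.28, -0.25 to 0.81) and Birc2 (0.19, -0.04 to 0.43) were above 0 with intervals that held 0.

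**Figure D4:**
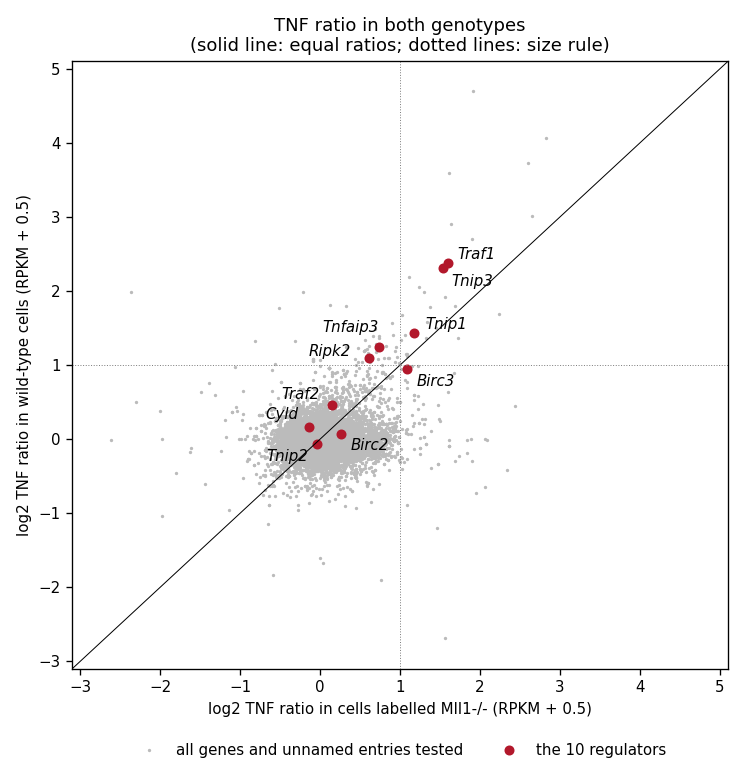
The log2 TNF ratio on RPKM + 0.5 in cells labelled Mll1-/- (horizontal axis) and in wild-type cells (vertical axis) for the 14386 genes and entries tested (grey) and the 10 regulators (red). Traf1, Tnip3, Tnip1, Tnfaip3 and Ripk2 lie above the line of equal ratios, and Birc3 and Birc2 lie below it.

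A smaller ratio did not always mean a smaller gain in transcript level. Tnip1 gained 24.4 RPKM with TNF in cells labelled Mll1-/- against 19.3 in wild-type cells, Traf1 gained 12.1 against 9.02, and Tnip3 gained 4.77 against 2.97. All of them were also higher in cells labelled Mll1-/- in control, by counting interval, as were Traf2 and Cyld. For Cyld that sign turned with the length trend removed. Traf2 gained 1.58 RPKM in those cells against 4.96 in wild-type cells. The level of Cyld changed by -1.24 RPKM with TNF in cells labelled Mll1-/- and by 1.40 RPKM in wild-type cells. Tnfaip3 started level in both genotypes and gained 4.01 RPKM in cells labelled Mll1-/- against 8.03 in wild-type cells. Ripk2 gained 4.79 against 24.4 RPKM, starting lower. For Birc3 the gains were 1.71 RPKM in cells labelled Mll1-/- and 2.01 RPKM in wild-type cells.

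The order of the 10 genes by level changed with both genotype and TNF. In cells labelled Mll1-/- with TNF, Tnip1 led, followed by Traf1 and Traf2, whose exact Poisson counting intervals overlap, and Birc3 came last, with an interval that overlaps that of Tnip2. In cells labelled Mll1-/- in control, Tnip1 was again first, followed by Traf2, and Birc3 was last at 1.02 RPKM. In wild-type cells with TNF, Ripk2 led at 45.2 RPKM, ahead of Tnip1 at 30.02, and the intervals of Tnip2 and Birc3, and of Birc3 and Tnip3, overlap at the low end. In wild-type control cells Ripk2 led at 20.8 RPKM and Tnip3 was last at 0.249, with Traf1 and Birc3 next above it at 1.64 and 1.68. The ratio of Tnfaip3 to Cyld, both deubiquitinase genes, was below 1 in every library except wild-type cells with TNF. Per length it was 0.827 with TNF (0.760 to 0.899) against 0.434 in control (0.392 to 0.479) in cells labelled Mll1-/-. In wild-type cells it was 1.03 with TNF (0.973 to 1.10) against 0.462 in control (0.423 to 0.504). The Birc3 to Birc2 ratio was 0.311 with TNF against 0.140 in control in cells labelled Mll1-/-, and 0.445 against 0.213 in wild-type cells. Summed over the 10 genes, levels came to 133.5 RPKM with TNF against 80.0 in control in cells labelled Mll1-/-, and 149.9 against 77.7 in wild-type cells.

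Patterns over the 4 libraries were compared by the root mean square difference of mean-centred log2(RPKM + 0.5) values, a description over 4 values only. Among the members, Tnip3 and Traf1 were the most alike (0.14), and Tnip2, Cyld, Traf2 and Birc2 lay within 0.25 of each other. Tnip3 was at 0.249 RPKM in wild-type control cells, below the pseudocount, which narrows its distance from Traf1. From reads, the TNF ratios of Tnip3 and Traf1 in wild-type cells were 12.9-fold and 6.49-fold. Tnfaip3 and Birc3 were 0.20 apart, and Ripk2 was at least 0.54 from every other member. Among all named genes, Tnfaip3 was nearest to Nfkbiz (0.04), an atypical IkB gene with 4.34 RPKM with TNF against 2.23 in control in cells labelled Mll1-/- and 6.14 against 2.27 in wild-type cells. The next were AF357399 (0.06) and Cd74 (0.12). After Traf1, Tnip3 was nearest to Nfkbie (0.30) and Ikbke (0.35), and Traf1, after Tnip3, to Ikbke (0.31) and Fas (0.38). Tnip1 was nearest to Gbp2 (0.10), Gdpd5 (0.12) and Ier3 (0.13), and Birc3 to Snord87 (0.10), Cd74 (0.10) and Angptl4 (0.13). Ripk2 was nearest to Slfn2 (0.17), Mrc1 (0.19) and Prl2c1 (0.20), the last of which may share reads with close relatives, which was not checked. AF357399 was at 1.06 to 3.04 RPKM and Snord87 at 0.673 to 2.42 RPKM. For short transcripts such levels rest on few reads, so these matches may reflect counting error, which was not checked. Of these neighbours, Gbp2, Cd74, Slfn2, Mrc1 and Prl2c1 were under 0.5 RPKM in at least 1 library, where the pseudocount shapes the pattern. Mrc1, for example, had 0.127 and 0.0655 RPKM in cells labelled Mll1-/- with TNF and in control.

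Other genes of the pathway were read from 5 lists with 63 symbols, of which 53 were among the genes tested. With TNF, 1 of the 53 was past the size rule upward and 0 downward in each genotype. Of all genes, 0.688% were past it upward and 0.16% downward in cells labelled Mll1-/-, and 0.521% upward and 0.0556% downward in wild-type cells. List medians were -0.05 in cells labelled Mll1-/- (all genes 0.02) and 0.04 in wild-type cells (all genes -0.02). That gene was Ikbke, an IkB kinase relative, at 10.9 RPKM with TNF against 3.98 in control in cells labelled Mll1-/- and 6.09 against 1.71 in wild-type cells. Its ratio was 2.73-fold (2.36 to 3.16) in cells labelled Mll1-/- and 3.56-fold (2.97 to 4.29) in wild-type cells. Of 12 genes listed with the TNF receptor complex, some only as Traf relatives, Traf7 (0.22) was highest and Xiap (-0.26) lowest in cells labelled Mll1-/-. In wild-type cells Traf3 (0.69), an adaptor of the same family as Traf2, was highest and Tradd (-0.21) lowest. Of 5 genes that make or remove linear ubiquitin chains, Otulin (0.19), a deubiquitinase for linear chains, and Rnf31 (-0.13), a ligase that makes them, were the ends of the range in cells labelled Mll1-/-, and Spata2 (0.29) and Rbck1 (-0.17) in wild-type cells. Of 18 A20 partners and other ubiquitin enzymes, these were Usp21 (0.30) and Usp4 (-0.29) in cells labelled Mll1-/-, and Rnf11 (0.26) and Peli2 (-0.27) in wild-type cells. Of 4 genes around Ripk2, Nod2 was at 0.90 and Erbin at -0.34 in cells labelled Mll1-/-, and Nod2 at 0.22 and Slc15a4 at -0.04 in wild-type cells. Nod2 lay far below the pseudocount in wild-type cells, and from reads its ratio was 2.47-fold (1.84 to 3.34) in cells labelled Mll1-/- and 4.63-fold (1.29 to 25.1, 14 against 3 reads) in wild-type cells, with intervals that overlap. No gene of these 5 lists reached a difference between genotypes of 1 in size in its log2 TNF ratio, and values ran from Traf3 (-0.61) to Nod2 (0.68). From reads the difference of Nod2 was -0.91, with an interval (-2.75 to 0.94) that held 0.

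**Figure D5:**
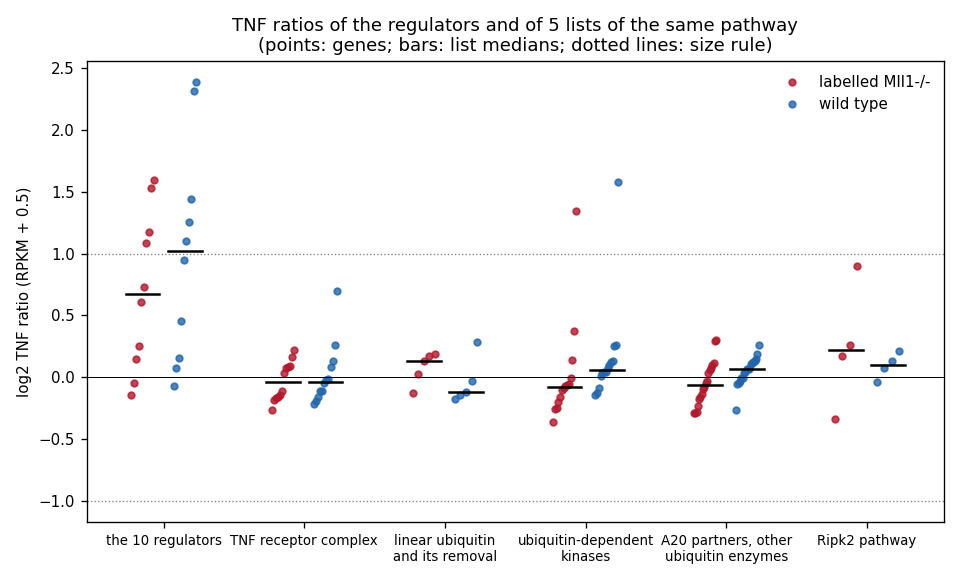
The log2 TNF ratio on RPKM + 0.5 of each gene (points) in the 10 regulators and in 5 lists of the same pathway, in cells labelled Mll1-/- (red) and wild-type cells (blue), with list medians as bars. The regulators have a median of 0.67 in cells labelled Mll1-/- and 1.02 in wild-type cells, and outside them only Ikbke passes the dotted line at 1.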

How the data were processed

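RNA-seq of 4 libraries, 1 per group, was analysed. The deposited values are RPKM, per the title of the authors' table, 1 for each of 27344 RefSeq transcript entries. The submitters' processing notes name TopHat and DESeq with no role or version. Build, annotation, counting program and strand: not given in the sources used here. Entries were named by accession, 20849 through a RefSeq gene table of GRCm38.p6 and 102 through GENCODE M21, and 6393 stayed unnamed. The members and lists were chosen with earlier results of these data known.

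Library totals were recovered from entries with 1 read. For 99.99% of entries a whole length then gave whole reads in all libraries, within 0.001 reads plus the rounding of the deposited values. For 11200 entries no usable reference length was at hand, and the shortest fitting length was taken. The recovery was also run on simulated data with the true lengths supplied. That run therefore does not test the entries that took the shortest fitting length. Comparisons used log2(RPKM + 0.5), at least 1 RPKM in at least 1 library, and a size rule of 1. Named genes are the members, Kmt2a, 4 TNF targets, list genes past the rule or else at the ends of their list, and the 3 nearest patterns. Alternatives were pseudocounts of 0.1 and 1, no filter, median-ratio scaling, scaling without the 20 most abundant genes, removal of a running median over length (501 genes), summed entries, a size rule of 0.58 and reads without a pseudocount. Python 3.11.15, scipy 1.17.1 and pandas 2.3.3 were used.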

Additional observations from a re-analysis of the deposited data

Results flagged for a closer look

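Cyld was the only one of the 10 genes whose log2 TNF ratio had opposite signs in the genotypes, -0.14 in cells labelled Mll1-/- and 0.16 in wild-type cells. The difference was -0.30 on RPKM + 0.5, and it was not tested, since each group is 1 library. With the length trend removed the difference was -0.06, and the other 2 Cyld entries gave -0.30 and -0.29. The Cyld entries have nearly the same length and levels and probably share most reads, so they are no independent check.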

How the results depend on the processing

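No paired analysis was possible because each group is 1 library and the labels carry no replicate numbers, and for the same reason no replicate could be left out. Of 400 single-gene values under the alternatives, 376 moved by less than the log2 distance from centre to edge of the counting interval. The other 24 moved by at least that much, 14 of them under scaling that omits the 20 most abundant genes. Of the values past the size rule, 0 changed sign. Leaving out the filter cannot move a member's own value, and summing entries cannot move the 8 genes with 1 entry. Those values are among the 376 by design. With TNF, the count of genes higher in cells labelled Mll1-/- than in wild-type cells was 0, but 1 (Tnip3) with a pseudocount of 0.1, with median-ratio scaling, with scaling that omits the 20 most abundant genes and from reads without a pseudocount, and 2 (with Traf1) at a size rule of 0.58. The count of genes with a lower TNF ratio in cells labelled Mll1-/- was 0, but 1 (Tnip3) with a pseudocount of 0.1, and 2 (Tnip3 and Traf1) from reads without a pseudocount and at a size rule of 0.58. Without TNF, the count lower in cells labelled Mll1-/- was 1 (Ripk2), but 0 with the 20 most abundant genes left out. That scaling shifts the median of all genes by -0.15 for TNF in cells labelled Mll1-/-, 0.28 and 0.10 between genotypes without and with TNF, and -0.17 for the difference in TNF ratio. It also brings Birc3 under the size rule in cells labelled Mll1-/-, as does a pseudocount of 1. All other counts of members stayed within 1.5 times the reported count. Depth limits Tnip3 most, with 26 reads in wild-type control cells, and then Birc3, with 58 reads in cells labelled Mll1-/- in control.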

Other observations

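Of the 53 genes in the 5 pathway lists, 6 were higher and 2 lower past the size rule in cells labelled Mll1-/- than in wild-type cells without TNF, where 7.11% of all genes were higher and 7.99% lower. With TNF, 5 were higher and 2 lower, against 6.71% and 4.5% of all genes. The genes counted higher include Nod2 and those counted lower include Peli2, and each passed the 1 RPKM filter only through the genotype in which it was higher. Tnfrsf1b, which encodes a TNF receptor, had 28.7 and 27.3 RPKM in cells labelled Mll1-/- with TNF and in control, against 2.46 and 1.97 RPKM in wild-type cells with TNF and in control. Optn, which encodes a ubiquitin-binding protein related to the IkB kinase subunit NEMO, had 12.6 and 13.2 RPKM in cells labelled Mll1-/- with TNF and in control, against 2.19 and 1.97 RPKM in wild-type cells with TNF and in control. Of 14 ubiquitin-dependent kinases and their adaptors, 4 were higher past the size rule in cells labelled Mll1-/- without TNF (all genes 7.11%) and 0 were lower (all genes 7.99%), namely Optn, Tbkbp1 (4.69-fold, counting interval 3.79 to 5.83), Tank (2.34-fold, 2.13 to 2.57) and Ikbke (2.33-fold, 1.90 to 2.86). With TNF, 3 of the 14 were higher and 0 lower, and Ikbke was at a log2 value of 0.78, short of the rule.

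Around Ripk2, which was lower in cells labelled Mll1-/-, the sensor gene Nod2 was higher. Nod2, the protein-coding neighbour of Cyld in the RefSeq table, had 159 and 67 reads in cells labelled Mll1-/- with TNF and in control, against 14 and 3 reads in wild-type cells with TNF and in control. Its only level of at least 1 RPKM was 1.78 in cells labelled Mll1-/- with TNF, so it passed the filter through that library alone. The immunity-related GTPase gene Irgm1 had 4.05 and 3.29 RPKM in cells labelled Mll1-/- with TNF and in control, against 16.7 and 15.2 RPKM in wild-type cells with TNF and in control. Peli2, a ubiquitin ligase gene of the Pellino family, had 15 and 23 reads in cells labelled Mll1-/- with TNF and in control, against 657 and 799 reads in wild-type cells with TNF and in control.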
